A study of Mus musculus with 4 samples.

Results

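The cells described here are ganglion macrophages that carried transcripts of the cell division programme, in dissociated dorsal root ganglia (DRG), the clusters of sensory nerve cell bodies beside the spinal cord. They were 100 of 6095 barcodes that passed the cell filter and of 6975 deposited barcodes, and 96 of the 100 came from ganglia taken 3 days after a sciatic nerve crush. A barcode was a member when it had 600 to 15000 UMIs (unique molecular identifiers, 1 for each captured RNA molecule), 500 to 4000 genes and less than 10% mitochondrial UMIs, and when it passed a macrophage gate and a cycle threshold. The gate asked for at least 5 UMIs summed over C1qa, C1qb and C1qc, at least 1 over Aif1, Cd68 and Csf1r, and at most 4 of Fabp7, the marker of satellite glial cells (SGC). The cycle threshold was at least 3 UMIs summed over Mki67, Top2a, Birc5, Cdk1, Ccnb1 and Cenpa. The other 920 gated barcodes, with 0 to 2 cycle UMIs, served as the comparison macrophages.

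The series held 4 droplet libraries made with the 10x Genomics chemistry, 2 from uninjured (control) C57BL/6 mice and 2 from C57BL/6 mice 3 days after sciatic nerve crush (injury), all of animals aged 8 to 12 weeks, with no transgene in any group. Per the study's methods, the mice were female and each batch pooled the ganglia of 5 animals, so a library is an average over animals and n counts libraries. Tissue was digested with papain and collagenase, strained, and sorted for live cells, so cell shares below are shares of what survived that treatment. The libraries held 1384 and 1788 barcodes (control replicates 1 and 2) and 2509 and 1294 barcodes (injury replicates 1 and 2), with 5585909, 11210875, 11163177 and 9477167 UMIs in total.

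Macrophages of the peripheral ganglia lie among the sensory neurons and their satellite glia, and a nerve lesion enlarges their number. Such a population can grow by recruitment of blood monocytes, which carry Ccr2, and by division of cells already in the tissue, which is driven largely through the Csf1 receptor. A dividing cell first switches on genes of DNA replication, held back by RB and released through E2F factors, and later the genes of mitosis, many of which carry a CCAAT box and a cell cycle homology region (CHR) bound by the DREAM and MuvB complexes.

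The 6 cycle genes that chose the cells cover different steps of that programme. Cdk1 encodes the kinase that drives entry into mitosis and Ccnb1 its cyclin B1 partner, Top2a the topoisomerase that untangles replicated DNA, Cenpa the histone H3 variant of the centromere, Birc5 the survivin subunit of the chromosomal passenger complex, and Mki67 the Ki-67 protein that coats mitotic chromosomes. Their promoters are shown because 4 of the 6 held both sequence elements of mitotic genes within 250 bases before to 50 bases after the RefSeq start (GRCm38.p6, 300 bases, given 5′ to 3′ on the gene's strand). The Cdk1 window is chr10:69352863-69353162 on the minus strand, the Cenpa window chr5:30666636-30666935 on the plus strand, the Mki67 window chr7:135716330-135716629 on the minus strand and the Top2a window chr11:99024140-99024439 on the minus strand. Capitals mark the CHR letters (TTTGAA or TTCGAA) and the CCAAT letters, on either strand, so that TTCAAA and ATTGG are the same elements read from the other strand.
Cdk1: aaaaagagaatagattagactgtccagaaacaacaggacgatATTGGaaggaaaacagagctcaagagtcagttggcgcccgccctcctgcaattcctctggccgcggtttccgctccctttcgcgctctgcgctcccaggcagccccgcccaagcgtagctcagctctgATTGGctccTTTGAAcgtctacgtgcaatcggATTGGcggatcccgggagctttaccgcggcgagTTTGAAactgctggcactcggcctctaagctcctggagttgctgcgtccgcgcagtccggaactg
Cenpa: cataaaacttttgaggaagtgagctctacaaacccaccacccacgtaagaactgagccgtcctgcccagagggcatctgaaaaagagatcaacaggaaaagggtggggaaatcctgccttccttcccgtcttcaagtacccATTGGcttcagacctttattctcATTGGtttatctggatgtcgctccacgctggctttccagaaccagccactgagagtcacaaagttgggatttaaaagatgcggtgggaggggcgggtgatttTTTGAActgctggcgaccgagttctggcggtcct
Mki67: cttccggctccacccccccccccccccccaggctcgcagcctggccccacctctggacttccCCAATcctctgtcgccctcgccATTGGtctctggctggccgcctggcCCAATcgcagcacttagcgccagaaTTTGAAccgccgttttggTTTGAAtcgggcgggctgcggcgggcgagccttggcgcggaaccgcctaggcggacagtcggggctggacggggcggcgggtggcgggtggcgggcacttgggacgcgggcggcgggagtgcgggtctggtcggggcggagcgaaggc
Top2a: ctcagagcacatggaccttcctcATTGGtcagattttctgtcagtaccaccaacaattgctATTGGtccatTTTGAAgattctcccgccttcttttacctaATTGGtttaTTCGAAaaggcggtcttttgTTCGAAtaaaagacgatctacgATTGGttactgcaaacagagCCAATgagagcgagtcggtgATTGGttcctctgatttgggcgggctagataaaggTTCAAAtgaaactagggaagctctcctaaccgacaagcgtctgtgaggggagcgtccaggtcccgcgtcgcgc

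The Mki67 window held CHR letters 116 and 98 bases before the start, Cdk1 held them 71 and 15 bases before it, and Cenpa held them 17 bases after it. Top2a held 4 such matches and 6 CCAAT matches. Ccnb1 held CCAAT letters alone, 99 and 67 bases before its start, and the Birc5 window held neither set of letters. CHR letters lay in 19.2% of all 32851 RefSeq mouse promoter windows, CCAAT letters in 37.4% and both in 7.52%. Across the longer list of mitosis genes, of which 58 genes with 65 windows matched, both sets of letters lay in 39 windows (60.0%). In the list of replication genes, 37 of 52 symbols matched with 43 windows, CHR letters lay in 16.3%, and E2F letters (TTTCCCGC, TTTGGCGC or TTTCGCGC, either strand, where a base at the edge may also belong to a CHR or CCAAT match) lay in 15 windows (34.9%), against 1.84% of all windows. These matches describe letters, and no binding was measured.

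Cycling cells took a larger share of the macrophages in both injury libraries than in either control library. Of the gated macrophages, 1 of 254 in control replicate 1 was cycling (0.394%, 95% exact binomial interval 0.00997 to 2.17%) and 3 of 81 in control replicate 2 (3.70%, 0.770 to 10.4%). In injury replicate 1 it was 54 of 483 (11.2%, 8.51 to 14.3%), and in injury replicate 2 it was 42 of 202 (20.8%, 15.4 to 27.0%). The groups did not overlap, and the intervals, which cover counting error only, separated both injury libraries from control replicate 1 but touched between control replicate 2 and injury replicate 1. The mean share was 2.05% ± 2.34 (SD, n = 2) in control and 16.0% ± 6.80 (SD, n = 2) in injury libraries, a difference of 13.9 percentage points, with p = 0.33 in a two-sided exact permutation test over libraries, the smallest p that 2 against 2 libraries allow.

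The share of the whole cell suspension moved the same way, from 0.0769% and 0.224% of passing barcodes in control to 2.27% and 3.90% in injury libraries. The gated macrophages themselves made up 19.5% and 6.04% of passing barcodes in control replicates against 20.3% and 18.8% in injury replicates, so the macrophage fraction of the suspension overlapped between the groups. With each gated cell thinned to 1000 UMIs (1 shallower cell was left out), the share with at least 1 cycle UMI was 3.16% and 7.41% in control and 11.4% and 19.8% in injury libraries. Read from at least 3 UMIs of 8 mitotic genes that the rule did not use (Ube2c, Tpx2, Cenpf, Nusap1, Prc1, Cdc20, Kif11 and Ccnb2), it was 0% and 3.70% in control and 9.32% and 17.3% in injury libraries. That other set held 83 cells, of which 79 were members (79.0% of the members and 95.2% of the other set).

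Cycle transcripts outside the macrophage gate were taken as the background level. Barcodes with high Fabp7 and little C1q, which are SGC by their defining marker, carried at least 3 cycle UMIs in 0 of 69 cells of control replicate 1, 0.422% of control replicate 2, 0.151% of injury replicate 1 and 2.42% of injury replicate 2 (0 of 69 allows a share of up to 5.21% by the exact interval). In the same library order, at least 1 cycle UMI was found in 4.35%, 4.64%, 2.11% and 7.27% of these glia, whose median UMI counts were 2434, 4334, 3080 and 4972. Among gated macrophages the share was 10.2%, 17.3%, 25.7% and 35.1%, with median UMI counts of 2994, 3255, 4705 and 4944. The macrophage shares exceeded the glial shares in every library, and injury replicate 2 had the highest value of both.

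**Figure D1:**
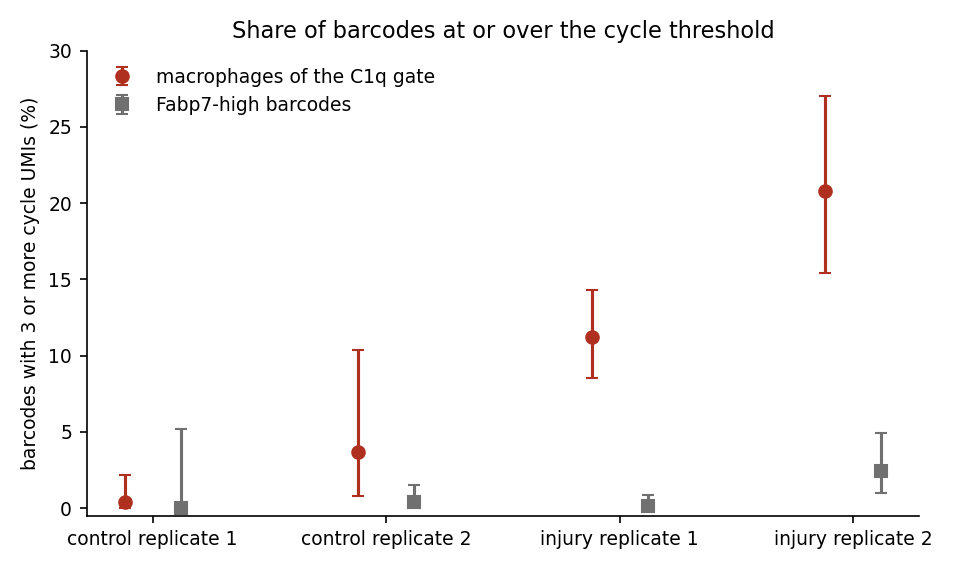
Percent of gated macrophages (red) and of Fabp7-high barcodes (grey) with at least 3 cycle UMIs in each library, with 95% exact binomial intervals as bars. The macrophages of the injury libraries lie at 11.2% and 20.8%, above those of the control libraries at 0.394% and 3.70%, and the Fabp7-high barcodes lie at 2.42% or less.

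Cells outside the macrophage gate carried cycle genes as well. The remaining barcodes with at least 3 cycle UMIs numbered 24 and 41 in control and 29 and 85 in injury libraries, and of these 179 barcodes 176 failed the gate on C1q and 3 on Fabp7. At least 5 UMIs of macrophage markers were found in 90 of them and of neutrophil markers in 48. The same held for erythroid markers in 47 and for T and NK cell markers in 27. A barcode could count for more than 1 list, so these counts overlap and do not name cell types. Ly6c2, a monocyte gene, was found in 14 of 24 and 16 of 41 of these barcodes in control libraries. In injury libraries it was in 10 of 29 and 37 of 85. Members made up 1 of 25 and 3 of 44 cycling barcodes in the control replicates, and 65.1% and 33.1% of them after injury. Cycling barcodes outside the gate were 2.29% and 3.25% of the ungated cells in control and 1.53% and 9.73% in injury libraries, so that share overlapped between the groups where the macrophage share did not.

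The macrophage label was checked against marker genes. Of 17 macrophage markers in the files 6 belong to the gate, so their detection was fixed by the rule. The other 11 were each detected, in 15 to 100 of the members and with 13251 UMIs of the 28437 that all 17 gave, while C1qa was the most abundant single marker. T and NK cell markers were at 0 in the members for 7 of 7 genes, and 5 of 6 dendritic cell markers were at 0. C1qa, a subunit of complement C1q made by tissue macrophages, stood at 6812 CPM (UMIs of a gene scaled by the summed UMIs of the class) in the members and 7779 CPM in the other macrophages of injury replicate 1, and at 6213 and 6932 CPM in injury replicate 2. Csf1r, the receptor for the macrophage growth factor Csf1, stood at 737 against 809 CPM and at 669 against 786 CPM. Both genes chose the cells and carry no test. In the gene comparison given below, 10 of the 17 markers, gate genes counted, were called lower in the members and 0 higher. Lyz2, which lies outside the gate, was at 6017 against 11246 CPM and at 6320 against 9421 CPM. Lyz2, Cd14 and Ms4a7 were also called lower against the depth-matched macrophages described below and by DESeq2. Among markers of other cells, Schwann markers had 293 UMIs (most from Pmp22), fibroblast markers 236 (most from Dcn), B cell markers 125, SGC markers 101, neutrophil markers 75 and erythroid markers 48. Scrublet, a doublet caller, marked none of the members, but it marked only 0.289% to 0.957% of barcodes per library, so it was not relied on. Of 20 barcode sequences shared between libraries, 1 belonged to a member.

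The defining transcripts were unevenly spread over the members. Birc5 was seen in 96 of the 100 cells, Cenpa in 77, Cdk1 in 70, Top2a in 68, Mki67 in 54 and Ccnb1 in 49. Birc5 gave 459 UMIs, 33.0% of the cycle UMIs counted, and Mki67 gave 106, or 7.61%. All 6 genes were present in 17 members, and 1 member passed on a single gene. The threshold had 9 members with 3 cycle UMIs and 7 with 4 just inside it, while 84 had 5 or more. Just outside it lay 14 macrophages with 2 cycle UMIs and 121 with 1, and 785 had 0. Median depth was 7618 and 8144 UMIs for cells with 3 and 4 cycle UMIs, 6772 for those with 2 and 3789 for those with 0. The 4 control members carried 7 cycle UMIs (control replicate 1) and 5, 8 and 11 (control replicate 2), all above the threshold by 2 or more.

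**Figure D2:**
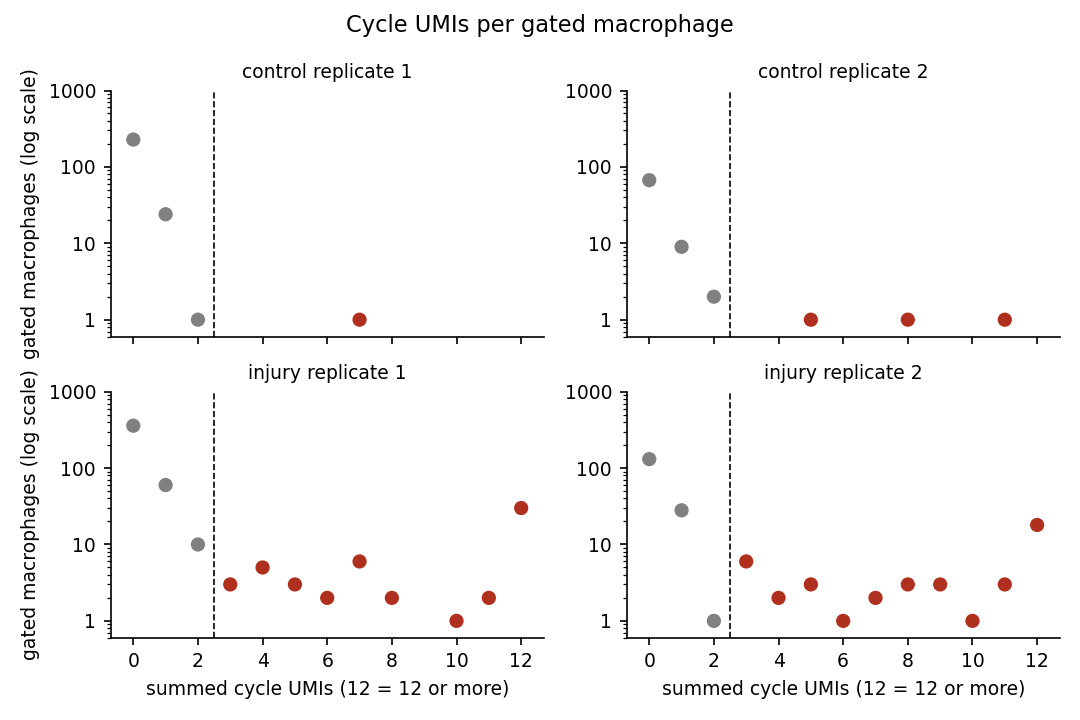
Number of gated macrophages (y axis, log scale) by summed UMIs of the 6 cycle genes (x axis, 12 standing for 12 or more), with 1 panel per library, members in red, comparison macrophages in grey and the threshold as a dashed line. The 4 control members lie at 7 in replicate 1 and at 5, 8 and 11 in replicate 2, while 30 members of injury replicate 1 lie at 12 or more.

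In CPM summed over cells, Mki67 was at 172 in the members and 2.40 in the other macrophages of injury replicate 1, and at 93.1 and 0 in injury replicate 2. Top2a was at 253 against 4.32 CPM and at 333 against 2.43 CPM, and Birc5 at 643 against 6.72 CPM and at 612 against 7.28 CPM. Members were also deeper cells, with a median of 7994 UMIs against 4349 in injury replicate 1 (ratio 1.84) and 6536 against 4676 in injury replicate 2 (ratio 1.40). A threshold on raw UMIs favours deep cells. The gene comparison of members with other macrophages was therefore repeated against the 146 and 68 other macrophages with at least 5495 and 4972.5 UMIs, called depth-matched macrophages here.

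The members carried transcripts of both the replication (S phase) and the mitosis (G2/M) list. In the members of injury replicate 1, S phase genes took a median of 0.132% of a cell's UMIs and G2/M genes 0.907%, and in injury replicate 2 the medians were 0.533% and 1.13%. In the other macrophages the S phase medians were 0.0414% and 0.0529% and the G2/M medians 0.0769% and 0.0923%. S phase genes exceeded G2/M genes in 10 of 54 members of injury replicate 1 and in 9 of 42 of injury replicate 2, beside 125 of 429 and 56 of 160 other macrophages, and the rule itself asked for mitotic rather than replication genes. Over the 100 members the shares of S phase and G2/M genes had a Pearson r of -0.100 and a Spearman rho of 0.00139, as a description of cells from pooled libraries. A group of 14 members, 10 and 4 in the injury libraries, had less than 0.3% of UMIs in either list, with a median of 4 cycle UMIs. Outside the members, injury macrophages (45 of 429 and 28 of 160 comparison cells) and control macrophages (4 of 253 and 6 of 78) carried at least 10 UMIs of S phase genes, so the rule left out some cells with replication transcripts.

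**Figure D3:**
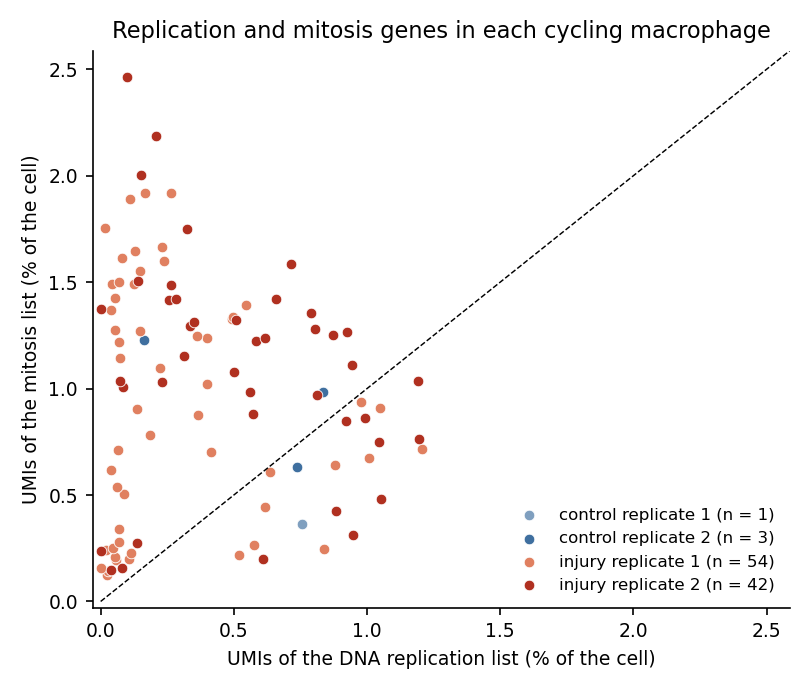
Share of a cell's UMIs in S phase genes (x axis, percent) against G2/M genes (y axis, percent), with 1 point for each of the 100 members coloured by library. Most members lie above the dashed line of equal shares, and in the injury libraries 10 of 54 and 9 of 42 lie below it.

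To ask what else set the cycling macrophages apart, UMIs were summed by library and class and members were compared with the other gated macrophages of the same library in injury replicates 1 and 2 (n = 2 libraries, edgeR's quasi-likelihood test with library as a block, Benjamini-Hochberg adjustment over 5829 genes). The control libraries, with 1 and 3 members, were not fitted. At an adjusted p below 0.05, 456 genes were higher in the members (7.82% of those tested) and 338 lower (5.80%). Scaled by library totals in place of TMM it was 557 and 219, and DESeq2 called 157 and 38. Without the rule genes and the cycle lists it was 344 higher and 337 lower of 5702. The fixed lists do not hold every gene of division, and the higher calls that remain include Incenp, Smc2 and Cenpq. Higher calls outside the lists, those of Ezh2 and Cdkn2c included, are therefore not independent of how the cells were chosen. The fit had 1 residual degree of freedom. Of those calls outside the cycle lists, 223 higher and 164 lower were also called against depth-matched macrophages, and 62 higher and 29 lower also by DESeq2. Of all 4810 genes tested against depth-matched cells, 6.82% were higher and 3.89% lower.

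The cycle lists are described without support drawn from them, because the rule selected on this programme. Of 66 mitosis genes measured, 66 were higher, with a median log2 fold change of 4.68, beside -0.03 for all genes. Ube2c, which loads ubiquitin for the anaphase-promoting complex, was at 427 CPM in the members and 10.1 in the other macrophages of injury replicate 1, and at 419 and 6.07 in injury replicate 2. Cenpf, a kinetochore protein, was at 158 against 1.92 CPM and at 125 against 1.21 CPM. Of 37 replication genes, 29 were higher (median 1.56), and DESeq2 called 14. Rrm2, the regulated subunit of ribonucleotide reductase, was at 140 against 3.84 CPM and at 297 against 8.49 CPM. Pcna, the sliding clamp of DNA polymerase, was at 103 against 35.5 CPM and at 218 against 74.0 CPM, and Mcm2 of the replicative helicase differed by 0.71 on the log2 scale without passing the test. Of 11 histone and cytoskeleton genes, 11 were higher (median 2.19), among them Stmn1, a microtubule destabiliser, at 1729 against 135 CPM and at 2358 against 205 CPM. In each list the member values lay above the comparison values in both libraries for the genes named here.

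Outside those lists, 10 genes with the highest fold changes were named by rule, in cells chosen on the division programme. Cdkn3, a phosphatase of cyclin-dependent kinases, was at 140 CPM in members against 2.88 in injury replicate 1 and at 93.1 against 2.43 in injury replicate 2, a log2 fold change of 5.32 ± 0.40 (SE). Kpna2, an importin, was at 23.0 against 0.961 CPM and at 200 against 10.9 CPM (4.16 ± 0.41). Member values of Kpna2 thus differed widely between the libraries while both exceeded the comparison cells. The others of the 10 highest were 1190002F15Rik, Cenpq, Asf1b, Smc2, Incenp, Cdkn2c, Ube2s and Ezh2, with log2 fold changes from 2.49 to 5.02. They include a kinetochore subunit (Cenpq), a histone chaperone (Asf1b), a condensin (Smc2) and the partner of survivin in the passenger complex (Incenp). Ezh2, the methyltransferase of Polycomb complex PRC2, was at 108 CPM in members and 18.3 in the other macrophages of injury replicate 1, and at 118 and 18.2 in injury replicate 2 (2.49 ± 0.30, adjusted p = 7.37e-15, edgeR with Benjamini-Hochberg adjustment).

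Regulators of cycle entry and exit went in both directions. Of 18 measured, 3 were higher (Cdkn2c, Cdkn2d and Cdk4) and 7 lower, and the median was -0.31. Cdkn2c, which encodes the CDK4 and CDK6 inhibitor p18, was at 108 CPM in members and 15.4 in the other macrophages of injury replicate 1, and at 329 and 24.3 in injury replicate 2. Its log2 fold change was 3.17 ± 0.25 (adjusted p = 2.96e-33, edgeR with Benjamini-Hochberg adjustment), and Cdkn2d, encoding the related inhibitor p19, differed by 2.49. Cdk4 was higher by 0.66, a call that DESeq2 did not make. Among the lower genes, Klf2, a factor that holds lymphoid and myeloid cells at rest, was at 487 against 1043 CPM and at 186 against 468 CPM. The Klf2 difference was -1.30 ± 0.15 against all other macrophages and -0.68 against depth-matched ones, with adjusted p = 1.12e-16 and 0.00765 (edgeR with Benjamini-Hochberg adjustment). Btg2, an antiproliferative gene, was at 613 against 860 CPM and at 172 against 436 CPM, differing by -0.91 ± 0.15 and by -0.66 against depth-matched cells. The comparison macrophages of injury replicate 2 had less Klf2 and Btg2 than the members of injury replicate 1. Over all gated macrophages, Klf2 was at 1932 and 782 CPM in control and 947 and 397 CPM in injury libraries. Btg2 was at 1622 and 608 against 817 and 369 CPM. Ier2, which responds to tissue dissociation, had the same library order (1166 and 428 against 660 and 271 CPM). A part of dissociation in the Klf2 and Btg2 differences was not tested. Ccnd1 and Ccnd2, the D-type cyclins that act before replication, differed by -0.68 and -0.92, and DESeq2 called neither. Ccnd1 was at 94.2 against 107 CPM in injury replicate 1 and at 50.1 against 123 CPM in injury replicate 2, a wider gap in the latter, and was not called with control replicate 2 added. Against depth-matched cells it was called (-0.73), while Ccnd2 (-0.57) and Cdk4 (0.41) were not.

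Immediate early and heat shock genes, which respond to stress and to tissue dissociation, were lower in the members for 11 of 14 genes, with a median of -0.74 that moved to -0.24 with 4 of 13 called against depth-matched macrophages. Junb, a subunit of the AP-1 transcription factor, was at 2067 CPM in members and 3039 in the other macrophages of injury replicate 1, and at 920 and 1746 in injury replicate 2. Its difference of -0.83 ± 0.11 was -0.54 against depth-matched cells, called in both. Hspa1a, a heat shock gene with a near-identical copy that makes its count uncertain, was at 156 against 640 CPM and at 344 against 647 CPM. The Hspa1a difference was -1.56, and -0.89 against depth-matched cells, called in both. Ier2 was at 494 against 695 CPM and at 136 against 317 CPM (-0.86). Libraries differed as well, since the comparison macrophages of injury replicate 2 had less Ier2 than the members of injury replicate 1. Fos and Jun differed by -0.51 and -0.74 but by -0.09 and -0.24 against depth-matched cells, with adjusted p = 0.731 and 0.294 there (edgeR with Benjamini-Hochberg adjustment).

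**Figure D4:**
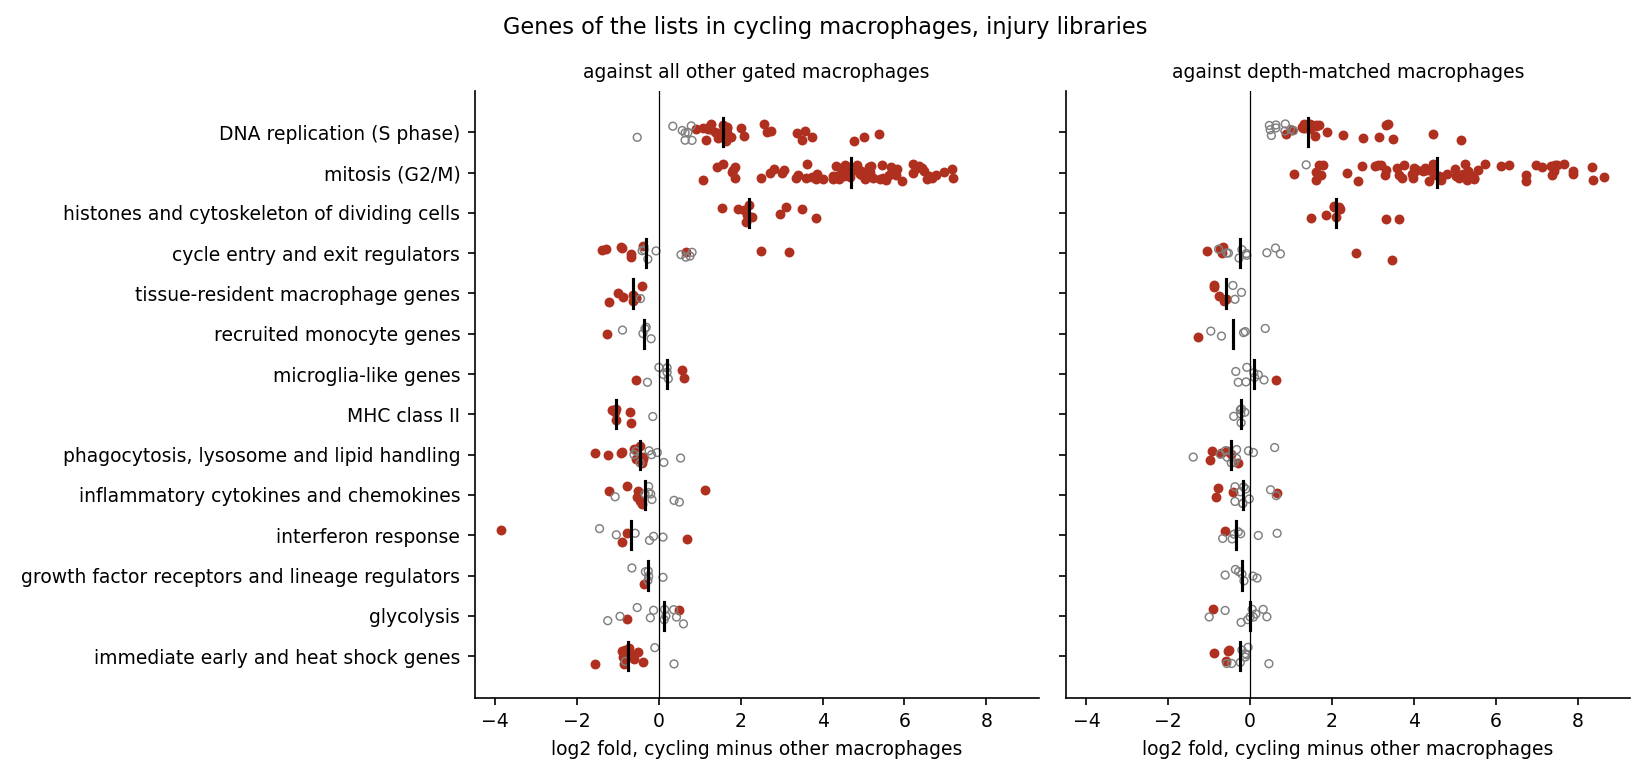
Log2 fold change of members over other gated macrophages (left) and over depth-matched macrophages (right) for each measured gene, by gene list on the y axis, with genes at an adjusted p below 0.05 filled and medians as bars. The mitosis and histone lists lie to the right in both panels, and the MHC class II median moves from -1.04 on the left to -0.23 on the right.

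Antigen presentation genes were lower against all other macrophages and were not called against depth-matched ones. Cd74, the invariant chain of MHC class II, was at 9876 CPM in members and 20699 in the other macrophages of injury replicate 1, and at 6843 and 12138 in injury replicate 2. H2-Aa was at 2829 against 6419 CPM and at 2072 against 3323 CPM. Of 7 class II genes, 6 were lower (median -1.04), and Cd74 differed by -1.05 ± 0.10 (adjusted p = 2.66e-24, edgeR with Benjamini-Hochberg adjustment). Against depth-matched macrophages 0 of 6 were called, the median was -0.23, and Cd74 differed by -0.13 with adjusted p = 0.939 (edgeR with Benjamini-Hochberg adjustment). With each cell thinned to 1000 UMIs, which levels the counts but keeps the shallow cells in the comparison class, 5 of 6 were lower (median -1.14). A difference from macrophages above the depth floor, which sets a lower limit only, was thus not detected. The dendritic cell gene Cd209a, whose carriers are rich in class II, had 0 UMIs in the members against 17.3 and 48.5 CPM in the other macrophages. It was at least 2.51-fold and 4.52-fold lower, taking 3 UMIs per library as the floor.

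Genes that mark long-resident macrophages were lower in the members for 8 of 9 measured genes, with a median of -0.63 and of -0.60 against depth-matched cells, where 6 of 9 were called. DESeq2 called 0 of the 9. Gas6, a bridging ligand for uptake of dead cells, was at 142 CPM in members and 336 in the other macrophages of injury replicate 1, and at 351 and 455 in injury replicate 2. It differed by -0.88, and by -0.75 against depth-matched cells (adjusted p = 0.00103, edgeR with Benjamini-Hochberg adjustment). Cd163, the haemoglobin scavenger receptor, was at 29.9 against 74.0 CPM and at 57.3 against 108 CPM (-1.21 ± 0.29). Mrc1, the mannose receptor, was at 211 against 366 CPM and at 533 against 586 CPM (-0.55). The Mrc1 call was lost against depth-matched cells (-0.37) and, at a fold close to the first (-0.56), with control replicate 2 added. Members of injury replicate 2 had more Mrc1 than the comparison cells of injury replicate 1. After thinning to 1000 UMIs, 22.2% of members and 30.8% of other macrophages of injury replicate 1 had a Cd163 or Mrc1 UMI, and in injury replicate 2 it was 45.2% and 41.2%, the opposite order (55.6% against 62.7% and 85.7% against 81.2% before thinning).

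Cycling cells were counted among macrophages with more and with fewer UMIs of Cd163 and Mrc1, where a low count does not show that a cell lacks the transcript. Among gated macrophages with at least 3 UMIs of Cd163 and Mrc1, 8.03% of 137 were cycling in injury replicate 1 and 22.6% of 106 in injury replicate 2. Among those with 0 to 2 such UMIs it was 12.4% of 346 and 18.8% of 96. The order differed between the libraries. In the control libraries it was 0 of 83 and 0 of 11 against 1 of 171 and 3 of 70.

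Of the genes of freshly recruited monocytes, 6 were high enough to be tested. Ly6c2, the Ly6C antigen of inflammatory monocytes, was too low in either class, at 2.30 CPM in members and 1.92 in the other macrophages of injury replicate 1, and at 0 and 4.85 CPM in injury replicate 2. Of the 6 tested genes 1 was lower, S100a6, a calcium-binding protein, at 52.8 against 203 CPM and at 200 against 314 CPM. It differed by -1.28 ± 0.20, and by -1.27 against depth-matched cells (adjusted p = 4.97e-09 and 8.06e-06, edgeR with Benjamini-Hochberg adjustment). Ccr2, the monocyte chemokine receptor, was at 292 against 334 CPM and at 225 against 300 CPM, and its difference of -0.39 did not pass (adjusted p = 0.108, edgeR with Benjamini-Hochberg adjustment). With other cell types removed the Ccr2 difference was -0.62 and passed (adjusted p = 0.0186, edgeR with Benjamini-Hochberg adjustment). After thinning to 1000 UMIs, 31.5% of members and 22.8% of other macrophages of injury replicate 1 had a Ccr2 UMI (64.8% and 49.2% before thinning), and in injury replicate 2 it was 7.14% and 21.2% (35.7% and 40.6%), the opposite order.

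Of 9 genes shared with microglia, 2 were higher and 1, Gpr34, was lower (-0.57, not called against depth-matched cells or by DESeq2), with a median of 0.20. Olfml3 was at 372 CPM in members and 232 in the other macrophages of injury replicate 1, and at 297 and 187 in injury replicate 2 (0.57). It was not called against depth-matched cells (0.34) nor by DESeq2. Selplg, the P-selectin ligand, differed by 0.61, and by 0.63 against depth-matched cells, without a call by DESeq2. Cx3cr1, the fractalkine receptor, was at 616 against 451 CPM and at 487 against 428 CPM, higher in both libraries, but its difference of 0.23 did not pass the test.

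Phagocytic and lysosomal genes were lower for 10 of 18, with a median of -0.45 and of -0.47 against depth-matched cells, where 6 of 17 were called. Cd63, a tetraspanin of late endosomes, was at 664 CPM in members and 1318 in the other macrophages of injury replicate 1, and at 784 and 1223 in injury replicate 2. Its difference was -0.92 ± 0.12, and -0.94 against depth-matched cells (adjusted p = 4.84e-12 and 5.78e-09, edgeR with Benjamini-Hochberg adjustment). Apoe, the lipid carrier, was at 17004 against 26783 CPM and at 17737 against 22727 CPM (-0.61, and -0.29 against depth-matched cells, called in both). The cathepsins Ctsb and Ctsl differed by -0.57 and -0.89. Ctsb was not called with control replicate 2 added (-0.68), and Ctsl was not called by DESeq2 (-0.91). Spp1, osteopontin, differed by 0.53 without passing. Among 13 glycolysis genes Gapdh was higher (0.50) and Aldoa lower (-0.77), and DESeq2 called 0. Of 7 growth factor receptors and lineage regulators, Cebpb was lower (-0.37), and 0 were called against depth-matched cells, where the Gapdh call was lost too.

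**Figure D5:**
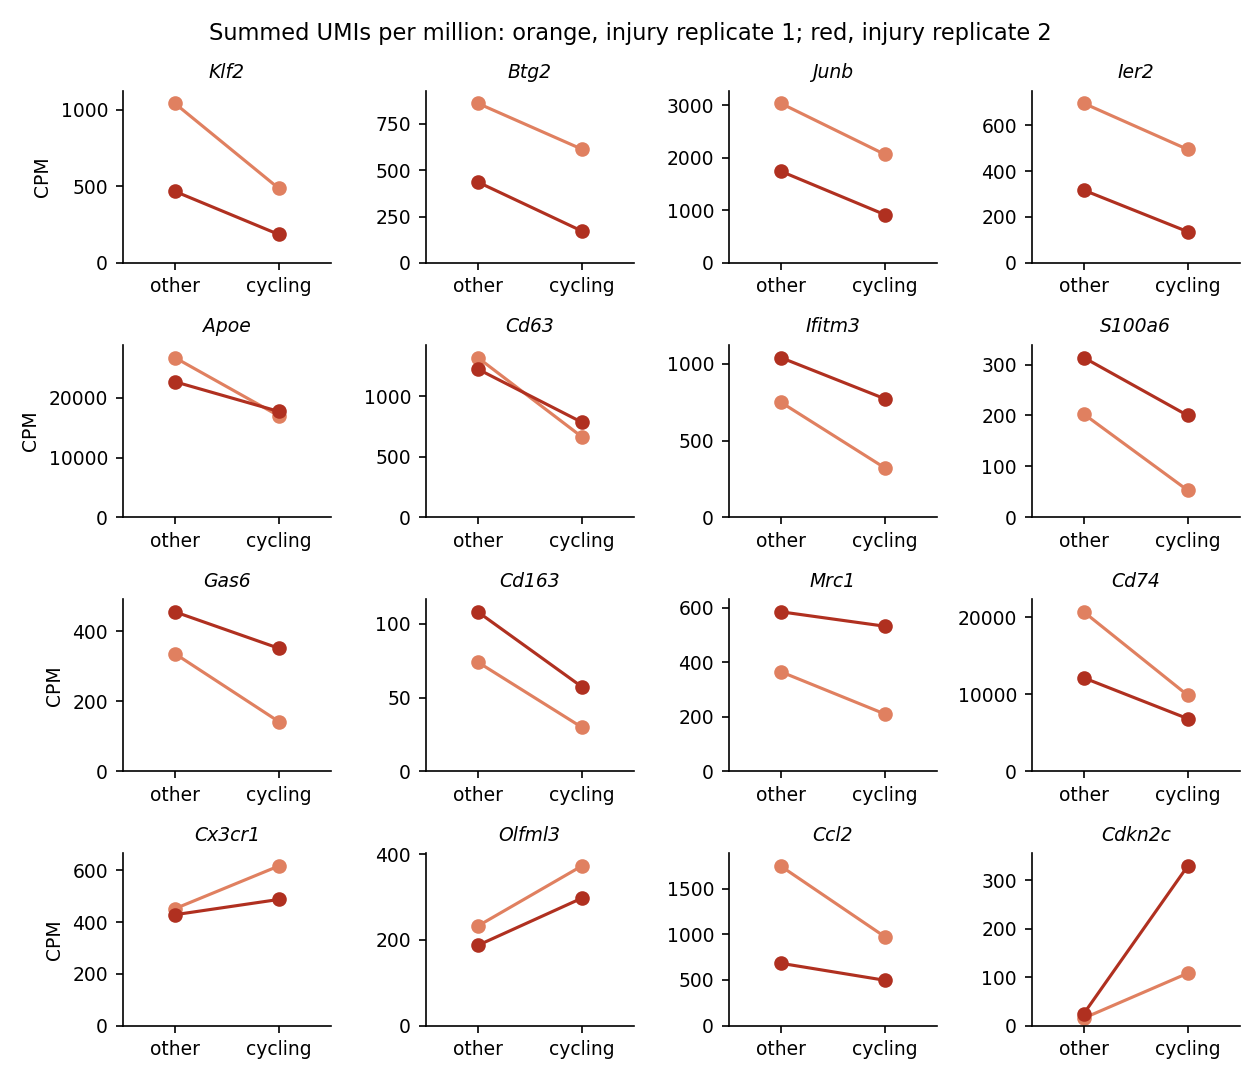
CPM in other gated macrophages and in cycling members, joined by a line for each injury library (orange replicate 1, red replicate 2), in 1 panel per gene with its own y axis. Klf2, Cd63, Ifitm3 and S100a6 go down in both libraries and Cdkn2c goes up in both.

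Cytokine and interferon genes were mostly lower or not called. Of 15 inflammatory genes, 6 were lower and 1 higher, with a median of -0.34. Against depth-matched cells 3 of 14 were lower (Ccl2, Ccl7 and Ccl12) and 1 higher (Tnf, 0.66), with a median of -0.18, and the calls of Ccl3, Ccl4, Ccl8 and Cxcl2 were lost. Ccl2, the main attractant for Ccr2-bearing monocytes, was at 974 CPM in members and 1747 in the other macrophages of injury replicate 1, and at 497 and 683 in injury replicate 2. It differed by -0.78, and by -0.42 against depth-matched cells (adjusted p = 0.0251, edgeR with Benjamini-Hochberg adjustment). Ccl7, a related chemokine, was at 703 against 1980 CPM and at 719 against 1145 CPM (-1.21). The Ccl7 call was absent under DESeq2, at a fold close to the first (-1.20). Once control replicate 2, with its 3 members, was added, neither Ccl2 (-0.28) nor Ccl7 (-0.29) was called. Il1b differed by -0.34 without passing. The higher gene, Il1a, was at 71.2 against 28.3 CPM in injury replicate 1 and at 0 against 1.21 CPM in injury replicate 2, so that call rests on 1 library and was lost against depth-matched cells. Of 10 interferon response genes 3 were lower and 1, Cxcl10, was higher (0.69), a call that was lost against depth-matched cells (0.66), with other cell types removed (0.64) and under DESeq2 (0.74), at folds close to the first. Ifitm3, a membrane restriction factor, was at 322 against 751 CPM and at 773 against 1042 CPM (-0.91), while Ifit3, called lower but not by DESeq2, rested on 1 UMI in the members of each library against 36 and 64 UMIs in the other macrophages, too few for a fold.

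Of the 10 genes lowest in the members by the naming rule, 5 belong to cells of connective tissue or vessels: Lum, Col3a1, Igfbp7, Igfbp5 and Serpinh1. Igfbp7 was at 39.0 CPM in members against 43.2 in injury replicate 1 and at 89.5 against 403 in injury replicate 2. The Igfbp7 gap thus lay mainly in injury replicate 2. Lum was at 2.30 CPM in members and 56.2 in the other macrophages of injury replicate 1, and at 42.9 and 190 in injury replicate 2. The summed fibroblast markers moved the same way as Lum, at 41.3 against 475 CPM and at 773 against 1358 CPM. Schwann markers were lower too, at 168 against 264 CPM and at 734 against 1131 CPM. With barcodes carrying other cell types' markers removed, these 5 genes were too low to be tested, and the part of such RNA in their difference was not tested. The others of the 10 were Mgl2, Clec4n, Fcgr4, Hspa1a and Lgals3, from -2.03 to -1.56. Mgl2, a C-type lectin of dendritic cells and macrophages, was at 55.1 against 373 CPM and at 193 against 476 CPM. The Mgl2 difference was -2.03, and -1.28 against depth-matched cells. Fcgr4, an activating receptor for IgG, was at 16.1 against 63.4 CPM and at 39.4 against 103 CPM. Of the 10 lowest genes, Lum (-1.88), Igfbp7 (-2.19), Fcgr4 (-1.01) and Lgals3 (-1.39) kept their direction against depth-matched cells but were not called, with adjusted p = 0.294, 0.137, 0.0773 and 0.534 (edgeR with Benjamini-Hochberg adjustment). DESeq2 did not call Mgl2, Fcgr4, Hspa1a, Igfbp5, Igfbp7 or Serpinh1.

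Seen across all gated macrophages, members included, the cycle genes stood higher after injury without any gene passing adjustment in the unblocked fit. Summed UMIs of the gated macrophages were compared between the 2 injury and 2 control libraries (edgeR's quasi-likelihood test, 7247 genes). At an adjusted p below 0.05, 0 genes (0%) were called, while DESeq2 called 4 higher and 12 lower. With libraries blocked by replicate number, which the labels do not give as a pairing, genes were called in both directions, the rule genes included. At an unadjusted p below 0.05, 228 genes (3.15%) were higher and 325 (4.48%) lower. Both injury libraries lay above both control libraries for 1875 genes (25.9%) and below them for 958 (13.2%).

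Birc5 was at 4.65 and 23.8 CPM in the control libraries and at 117 and 160 CPM in the injury libraries, with no overlap. Its log2 fold change was 3.54 ± 0.55 (adjusted p = 0.200, edgeR with Benjamini-Hochberg adjustment). Mki67 was at 5.81 and 6.8 CPM in control and 31.8 and 23.6 CPM in injury libraries. Ube2c, at 1.16 and 6.8 against 82.2 and 111 CPM, had a log2 fold change of 4.94 ± 0.55 (adjusted p = 0.0707, edgeR with Benjamini-Hochberg adjustment). The 6 rule genes, 35 of 46 mitosis genes, 16 of 36 replication genes and 8 of 10 histone and cytoskeleton genes lay higher in both injury libraries than in both control libraries. With members left out of the sums, 1 gene was called higher and 2 lower. Members were removed for their counts of the rule genes, so that comparison is no test of the cycle genes. In the sums over all gated macrophages, fewer cycling cells and less cycle RNA per cell cannot be told apart.

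The same sums gave injury and control values for other genes of the gated macrophages. Ly6c2 was at 48.8 and 44.2 CPM in control macrophages and at 1.99 and 3.62 CPM after injury (-4.26 ± 0.44, adjusted p = 0.0707, edgeR with Benjamini-Hochberg adjustment). The control values came from few cells, 42 UMIs in 9 cells of replicate 1 and 13 UMIs in 1 cell of replicate 2. Cd74 was at 53150 and 37929 CPM in control and at 18827 and 10797 CPM in injury libraries (-1.73), and 8 of 8 class II genes lay below the control libraries in both injury libraries. Gated macrophages were also deeper after injury, with median UMI counts of 4705 and 4944 against 2994 and 3255 in control. Depth was not matched between the groups in these sums. Tmem119, a gene of microglia, was at 77.9 and 98.6 CPM in control and 301 and 223 CPM in injury macrophages (1.49). Groups did not overlap for these genes, and the values did not pass adjustment.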

How the data were processed

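Single cell RNA sequencing of mouse DRG was deposited as 1 sparse matrix of raw UMI counts per library (genes by barcodes), made by the authors with Cell Ranger on mm10 and analysed by them in Partek (versions are not given in the labels). The deposited counts were used as they stand, for 33456 genes. Barcodes were filtered and chosen by the rule given above. Members and gene lists were chosen with earlier results of these data known. Counts were summed per library and class and tested with edgeR 4.0.16 in R 4.3.3 (quasi-likelihood, TMM, filterByExpr, robust), with DESeq2 1.42.0 as an alternative. Fold changes are log2 with standard errors, and shares carry 95% Clopper-Pearson intervals, which cover counting error only. Scrublet was run through scanpy 1.11.5. Tests were checked on simulated data with 200 genes changed. Among 5829 genes, 84.0% of 4-fold and 28.0% of 2-fold changes were recovered for members against other macrophages. Among 7247 genes, 91.0% of 8-fold changes were recovered for injury against control. The simulated counts had a fixed spread, the same for all genes, and no differences between libraries beyond their totals. These rates therefore need not hold in the real libraries. In the real fit of injury against control, the larger change of Ube2c was not called. Beside the rule genes, genes named were those of the fixed lists and the 10 highest and 10 lowest called outside the cycle lists, with a mean of at least 50 CPM and 1 direction in both libraries. Promoter sequence came from RefSeq on GRCm38.p6. Nothing in the labels says that equal replicate numbers pair the libraries. Alternatives covered scaling, filters, thresholds, depth, doublets and libraries left out.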

Additional observations from a re-analysis of the deposited data

How the results depend on the processing

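The difference in cycling share between injury and control libraries kept its direction under each alternative, from 9.13 to 18.7 percentage points with a library left out and from 10.3 to 14.4 otherwise, and an exact permutation test of 2 against 2 libraries cannot pass 0.05. Counts of genes higher and lower in members fell from 456 and 338 to 157 and 38 with DESeq2, 251 and 178 with libraries of at least 3 members, 82 and 55 with cells thinned to 1000 UMIs, 160 and 7 without the library block and 162 and 18 at a log2 fold of at least 2. Library totals in place of TMM gave 557 higher and 219 lower and moved the median of all genes from -0.03 to 0.08. Upper quartile scaling gave 417 and 447, and the depth-matched comparison, chosen after the data were seen, 328 and 187. Of the original calls, 322 higher and 164 lower were shared with the depth-matched comparison. With 1 library left, members against others has no residual spread, and values without a test remain.

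For injury against control, 0 genes were called in the main comparison, against 4 higher and 12 lower with DESeq2, 87 and 64 without the filter on low counts, 1 and 2 without members and 3 and 0 with barcodes of other cell types removed. With a library left out, calls ranged from 3 to 123 higher and from 3 to 196 lower, the highest without control replicate 2. With a replicate block, which pairs libraries by number, 80 genes were called higher and 119 lower, including the 6 rule genes. Deviations of same-numbered libraries correlated at 0.415 over genes, with 2 libraries a group, and the libraries share only a number. Direction was reversed for P2ry12 with other cell types removed (-0.05), for Tmem119 in the depth-matched comparison (-0.08) and without injury replicate 1 (-0.13, against 0.60 without injury replicate 2) and for Cenpa, injury against control, without members (-0.38), where the removed cells had been chosen on Cenpa itself, so that this reversal follows from the selection. The causes were not tested, other than fewer genes or cells where stated.

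Few members and a single residual degree of freedom limit the gene comparisons. Neither pair of replicate libraries was 1 library deposited again, with chi-square per degree of freedom of 6.23 in control and 14 in injury libraries.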

Other observations

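The replication-dependent histone gene Hist1h2ap had 0 UMIs in the 54 members of injury replicate 1 and 370 UMIs, 1324 CPM, in the 42 members of injury replicate 2, where 32 cells carried it. Over all barcodes control replicates 1 and 2 gave 17 and 219 UMIs of the gene and injury replicates 1 and 2 gave 2 and 1575, and in cycling barcodes outside the macrophage gate it stood at 73.0 and 791 CPM in control and 5.28 and 1937 CPM in injury libraries. The gene was thus low in every cycling class of injury replicate 1 and high in every cycling class of injury replicate 2. In the members of the same libraries Hist1h2ae was at 11.5 and 85.9 CPM and Hist1h1b at 20.7 and 25.1 CPM. Histone genes are near-identical copies, so how reads were split among them is uncertain. The difference was not tested, with 1 library on each side.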
